A study of Oryza sativa Indica Group with 8 samples.

Results

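OsIDS1 (LOC4352580) and OsMT-I-2c (LOC4337596) are metallothionein genes of rice whose transcripts were measured in roots on Affymetrix arrays. These 2 of the 17905 genes with a probe set of their own were chosen by their intensities in Fe deficiency against the control, where they stood among the largest rises of named genes. That difference is therefore described here with no test. All probe sets that match exactly 1 of these genes were used, which gave 6 of the 57194 probe sets tested, 1 for OsIDS1 and 5 for OsMT-I-2c. A further probe set matches OsIDS1 and the pseudogene LOC4327982 together and is described apart.

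The roots came from Oryza sativa Indica Group seedlings under 4 nutrient treatments, with 2 arrays each. These were the combined deficiency of phosphorus (P) and iron (Fe), Fe deficiency with P supplied, P deficiency with Fe supplied, and a control with both supplied. The labels speak of seedlings of 5 days, of 10 days of hydroponic growth and of 7 days of treatment, without saying how these add up. The labels do not say whether replicates were grown separately, so a p-value here reflects array-to-array spread that can be purely technical, and 2 arrays per group allow little precision.

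Metallothioneins are small proteins rich in cysteine that bind metals such as copper and zinc through their thiol groups. In plants they are known for metal storage and detoxification and for scavenging reactive oxygen species. The gene table gives OsIDS1 the further names OsMT-I-4a and OsMT1b, and IDS1 recalls Ids1 of barley, a metallothionein-like gene first cloned from iron-deficient roots. OsMT-I-2c is also listed as OsMT2b, a type 2 metallothionein that scavenges reactive oxygen species in rice. OsIDS1 lies in a cluster of its family, with 1 protein-coding gene between it and OsMT-I-4c and 13 between it and OsMT-I-4b in the japonica assembly used for names.

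Values below are quantile-normalized intensities, and differences are on the log2(intensity + 16) scale. Before quantile normalization the array medians were 63.9 and 68.9 in the combined deficiency, 53.3 and 48.1 in Fe deficiency, 62.2 and 62.9 in P deficiency, and 48.0 and 54.4 in the control. The brightest probe set of an array reached 36929 and 43695 in the combined deficiency, 34656 and 33875 in Fe deficiency, 44737 and 47075 in P deficiency, and 48863 and 50195 in the control. Quantile normalization therefore raised bright probe sets on the Fe-deficiency arrays. The 3' to 5' ratio of the GAPDH control transcript was 6.36 and 6.45 in the combined deficiency, 7.11 and 7.67 in Fe deficiency, 8.82 and 8.22 in P deficiency, and 12.6 and 11.8 in the control. All 4 measured root markers gave a signal in each group, and so did all 3 measured shoot markers.

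OsIDS1 was higher in each deficiency than in the control. Its probe set Os.9279.1.S1_at gave 14869 and 15633 in the combined deficiency, 19147 and 19087 in Fe deficiency, 14602 and 12978 in P deficiency, and 5442 and 4576 in the control. The 2 control arrays were the lowest of all 8, and no array of a deficiency overlapped them. The group means were 15251 ± 540 in the combined deficiency, 19117 ± 42.0 in Fe deficiency, 13790 ± 1148 in P deficiency and 5009 ± 612 in the control (SD, n = 2 arrays each).

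The order of OsIDS1 levels was therefore Fe deficiency, the combined deficiency, P deficiency and control. Fe deficiency stood 3.82-fold above the control, the combined deficiency 3.05-fold and P deficiency 2.75-fold. For scale, both arrays lay above both control arrays for 18.8% of all probe sets in Fe deficiency, 24.3% in P deficiency and 23.5% in the combined deficiency. All 3 differences share the control arrays by which the gene was chosen, so none is tested. The combined deficiency lay below Fe deficiency without overlap, at 1.25-fold less, and 27% of all probe sets lay lower in this way.

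Combined deficiency and P deficiency were the neighbours that lay closest for OsIDS1. Their normalized arrays did not overlap, but on the intensities as deposited they did, at 14498 and 15422 in the combined deficiency against 15828 and 13989 in P deficiency. The deposited values kept the large gap to the control, whose arrays read 5493 and 4575, and placed Fe deficiency at 17201 and 16875.

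The probe set shared by OsIDS1 and the pseudogene LOC4327982 had another pattern. Os.37924.1.S1_x_at gave 13639 and 15186 in the combined deficiency, 14824 and 15391 in Fe deficiency, 13166 and 13312 in P deficiency, and 15974 and 14620 in the control. The P-deficiency arrays were the lowest, the other 3 groups overlapped one another, and Fe deficiency minus control came to -0.017. Which of the loci this signal comes from was not tested, so the OsIDS1 results rest on a single probe set.

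**Figure D1:**
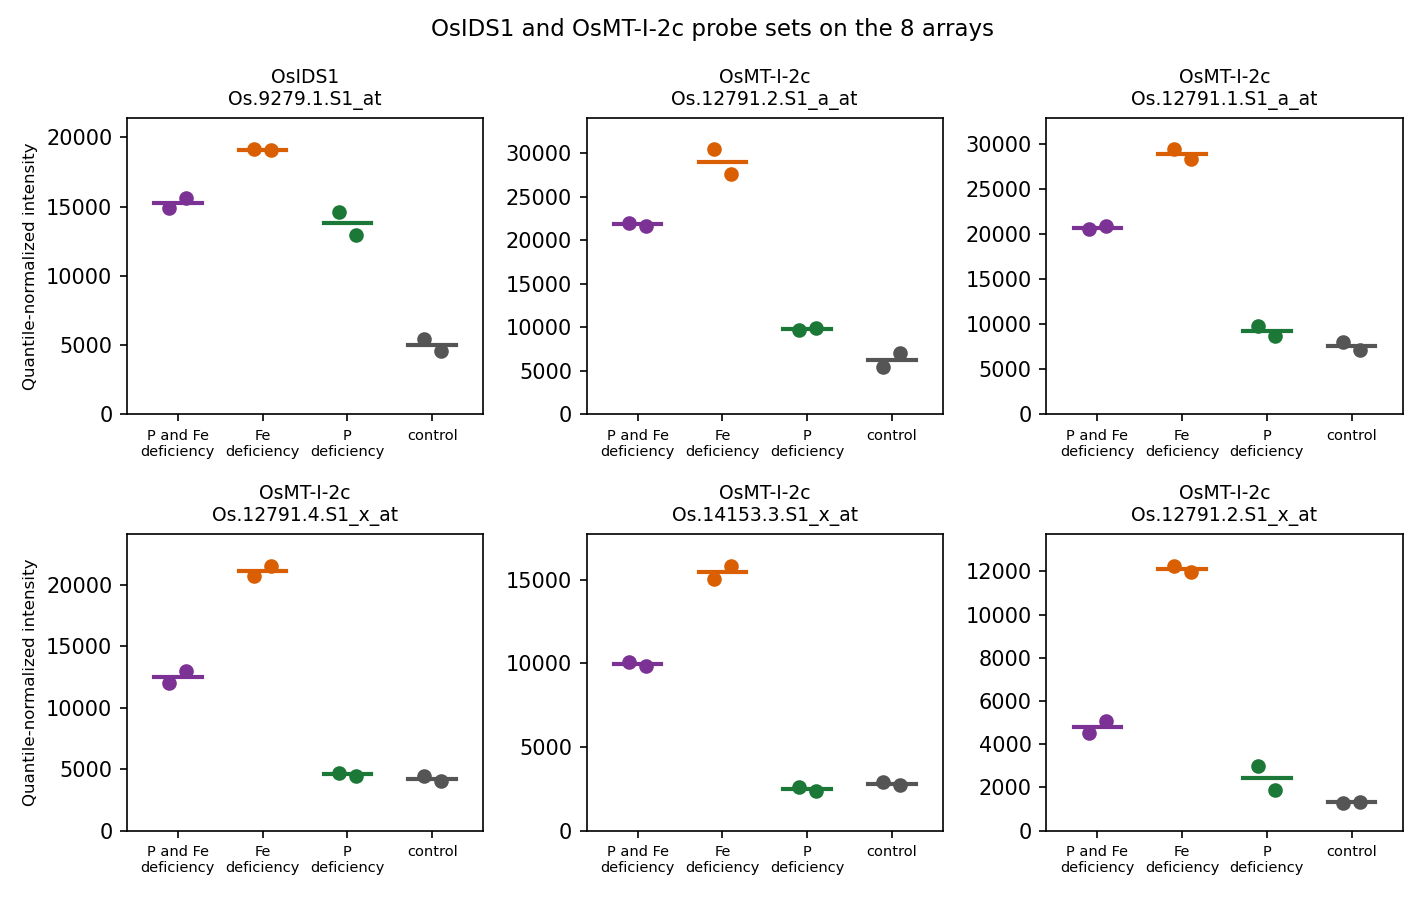
Quantile-normalized intensity (vertical axes, each from 0) of the 6 probe sets that match OsIDS1 or OsMT-I-2c alone, by treatment group. Points are the 2 arrays of a group and lines their mean. OsIDS1 averages 15251 in the combined deficiency and 13790 in P deficiency, while each OsMT-I-2c probe set is higher in the combined deficiency than in P deficiency.

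OsMT-I-2c was highest in Fe deficiency, next in the combined deficiency, and lower in both groups that received Fe. Its brightest probe set, Os.12791.2.S1_a_at, gave 21970 and 21669 in the combined deficiency, 30448.5 and 27604 in Fe deficiency, 9626 and 9888 in P deficiency, and 5455 and 7062 in the control. No pair of these groups overlapped. Fe deficiency stood 4.66-fold above the control, the combined deficiency 3.51-fold and P deficiency 1.57-fold.

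The other 4 OsMT-I-2c probe sets had the same 2 groups on top in the same order. Os.12791.1.S1_a_at averaged 20695 ± 204 in the combined deficiency, 28840 ± 746 in Fe deficiency, 9255 ± 750 in P deficiency and 7584 ± 580 in the control (SD, n = 2 arrays each). Os.12791.4.S1_x_at averaged 12468 ± 722 in the combined deficiency, 21125 ± 594 in Fe deficiency, 4559 ± 199 in P deficiency and 4206 ± 304 in the control. Over all 5 probe sets the ratio of Fe deficiency to control, by which the gene was chosen, ranged from 3.80-fold to 9.16-fold.

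The 2 dimmest probe sets of OsMT-I-2c differed in the order of P deficiency and control. Os.14153.3.S1_x_at gave 10066 and 9822 in the combined deficiency, 15054 and 15857 in Fe deficiency, 2612 and 2373 in P deficiency, and 2899 and 2709 in the control. Os.12791.2.S1_x_at gave 4497 and 5062 in the combined deficiency, 12267 and 11986 in Fe deficiency, 2997 and 1866 in P deficiency, and 1283 and 1336 in the control. P deficiency was below the control on the first of these and above it on the second.

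The difference of OsMT-I-2c between P deficiency and control thus depended on the probe set, from -0.17 to 0.85 on the log2 scale. Of the 5 probe sets, 3 had both P-deficiency arrays above both control arrays, 1 had both below, and 1 overlapped, beside 24.3% above and 26.4% below among all probe sets. Centring each array on its median turned the sign of Os.12791.4.S1_x_at, from 0.12 to -0.11. OsIDS1, by contrast, differed by 1.46 in this comparison. Probe sets whose names end in x can share probes with related genes, and the 5 probe sets share the same RNA and arrays, so they are not replicates.

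Where P was already lacking, the further withdrawal of Fe was tested, since the 4 arrays compared are not those that chose the genes. The spread behind each SE and p came from all groups, so it drew on the Fe-deficiency and control arrays that chose the genes. The test is therefore not fully independent of that choice, which was also made with earlier results of these data known. For OsIDS1 the combined deficiency minus P deficiency came to 0.15 on the log2 scale (SE 0.154, 95% interval -0.23 to 0.53, limma adjusted p = 0.805), a 1.11-fold difference. The sign turned to -0.062 when arrays were centred on their medians.

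For OsMT-I-2c the same comparison gave higher values in the combined deficiency on each of the 5 probe sets, without overlap of arrays. That held for 20.3% of all probe sets. The brightest probe set was 2.23-fold higher (log2 difference 1.16, SE 0.172, 95% interval 0.74 to 1.58) and did not pass over all probe sets (limma adjusted p = 0.14, unadjusted p = 0.000614). Os.14153.3.S1_x_at rose 3.97-fold (1.99, SE 0.136, 95% interval 1.65 to 2.33, limma adjusted p = 0.034). It was the 1 of 5 OsMT-I-2c probe sets that passed, while 0.0315% of all probe sets, 18 of 57194, passed in this comparison in either direction and 0.0227% upward.

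The remaining OsMT-I-2c probe sets gave 1.45 for Os.12791.4.S1_x_at (limma adjusted p = 0.076), 1.16 for Os.12791.1.S1_a_at (adjusted p = 0.111) and 1.01 for Os.12791.2.S1_x_at (adjusted p = 0.278). All 5 had an unadjusted limma p below 0.05, as did 5806 of all 57194 probe sets. The call of Os.14153.3.S1_x_at was lost when any 1 array was left out, with an adjusted p of 0.103 to 0.265 and a difference of 1.91 to 2.05. With the replicate number as a block its limma adjusted p was 0.17, and on the 4 arrays alone it was 0.342. With dim probe sets left out and the fit repeated on the rest, the brightest probe set passed as well (limma adjusted p = 0.023). So did Os.12791.1.S1_a_at (adjusted p = 0.0113) and Os.12791.4.S1_x_at (adjusted p = 0.00509), but not Os.12791.2.S1_x_at (adjusted p = 0.0858).

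**Figure D2:**
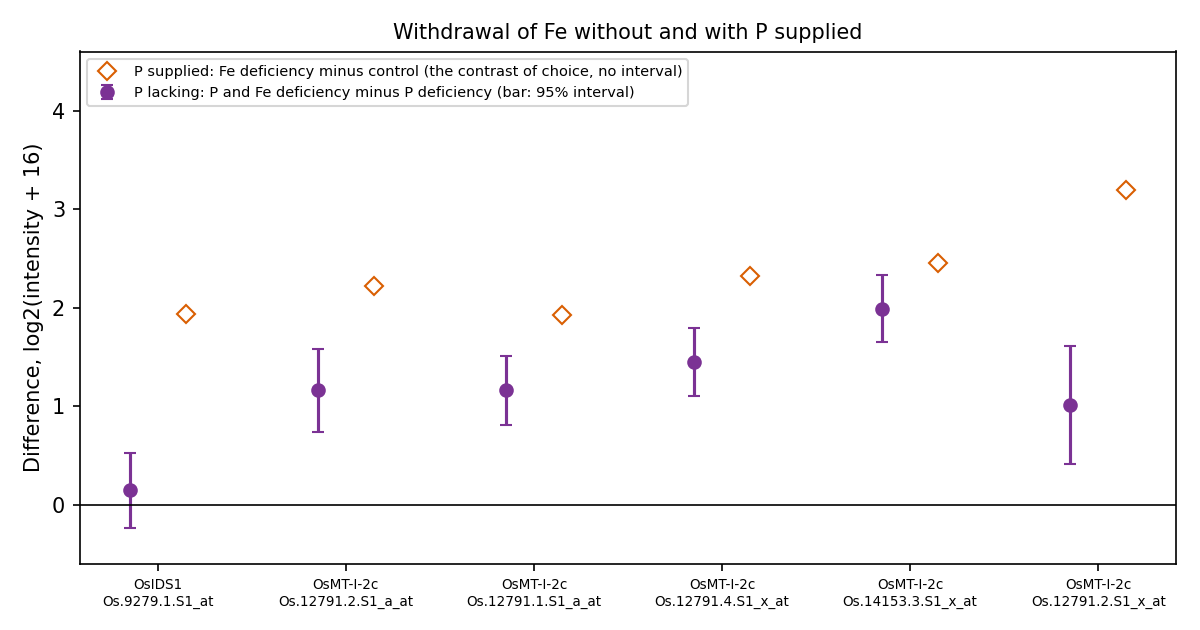
Difference in log2(intensity + 16) on withdrawal of Fe for each of the 6 probe sets. Filled points are the combined deficiency minus P deficiency with the 95% limma interval, and open diamonds are Fe deficiency minus control, the contrast that chose the genes, drawn without an interval. Each filled point lies below its diamond, with OsIDS1 at 0.15 against 1.93.

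Each of the 6 probe sets had a smaller difference on Fe withdrawal where P was lacking than where it was supplied. The gap was -1.79 on the log2 scale for OsIDS1 and ran from -0.47 to -2.19 over the OsMT-I-2c probe sets. Since the genes were chosen for a large difference with P supplied, this gap is a description and was not tested. The combined deficiency was lower than Fe deficiency alone on all 5 OsMT-I-2c probe sets without overlap, by 1.33-fold to 2.54-fold. That held for 27% of all probe sets. The difference shares the Fe-deficiency arrays by which the gene was chosen, and it was not tested.

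Across the 8 arrays the 5 OsMT-I-2c probe sets correlated with each other at 0.922 to 0.993 (Pearson, 10 pairs) and with OsIDS1 at 0.679 to 0.854 (5 pairs). The points are 2 arrays in each of 4 groups and share the same libraries. In P deficiency OsIDS1 stood 1.46 above the control on the log2 scale and the brightest OsMT-I-2c probe set 0.65 above it, while in the combined deficiency they stood 1.61 and 1.81 above it.

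Summed cell type markers differed with P supply. The sums for dividing cells and shoot markers also differed with Fe supply, without overlap of arrays, while those of root markers overlapped there. The summed intensity of the 50 measured kinesin and cyclin genes, set as markers of dividing cells, was 50498 to 50857 in the combined deficiency, 36435 to 37238 in Fe deficiency, 58165 to 61846 in P deficiency and 38513 to 40477 in the control. Some members went against this sum, such as KIN14M, with means of 1333 in P deficiency and 2714 in the control, and CYCD5-1, with 1055 and 1445. The 3 measured shoot markers summed to 32095 to 33811 in the combined deficiency, 40660 to 44470 in Fe deficiency, 29565 to 30384 in P deficiency and 45344 to 48357 in the control. CAB2R made up most of that sum, with means of 26995, 31217, 25350 and 32519 in that order. LIR1 averaged 1489, 3819, 970 and 3653, and OsrbcS 4470, 7529, 3654 and 10680. The 4 measured root markers summed to 24250 to 26034 in the combined deficiency, 34984 to 35447 in Fe deficiency, 23931 to 24946 in P deficiency and 34758 to 37833 in the control, and none of the markers was at 0. OsLsi1, a silicon transporter and the brightest root marker, averaged 18086 in the combined deficiency, 26350 in Fe deficiency, 16964 in P deficiency and 26951 in the control. OsLsi2, another silicon transporter, averaged 4290 in the combined deficiency, 7497 in Fe deficiency, 3308 in P deficiency and 8211 in the control. The other 2 root markers had higher means in both groups lacking P. OsCASP1, which shapes the Casparian strip, averaged 1703 in the combined deficiency, 969 in Fe deficiency, 2444 in P deficiency and 708 in the control. OsPIN2, an auxin transporter, averaged 1064 in the combined deficiency, 399 in Fe deficiency, 1723 in P deficiency and 425 in the control. The part of tissue make-up, array medians, the GAPDH and actin ratios or the spike signal in the differences of OsIDS1 and OsMT-I-2c was not tested. In whole roots, fewer cells of a type and less RNA per cell cannot be told apart.

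Among the 5 other metallothionein genes with a probe set of their own, only OsMT-I-2b (LOC4326409), a type 2 gene also named OsMT2c, passed in any comparison with the control. Its brightest probe set, Os.12410.1.S1_a_at, gave 42503 and 39525 in the combined deficiency, 32832 and 32530 in Fe deficiency, 33540 and 37074 in P deficiency, and 18360 and 20839 in the control. It rose in P deficiency (0.85, SE 0.146, limma adjusted p = 0.0271) and in the combined deficiency (1.07, adjusted p = 0.0272). These are 1 of 5 genes in each case, beside 4.23% and 2.07% of all probe sets called higher (8.28% and 3.85% in either direction). In Fe deficiency it gave 0.74 (limma adjusted p = 0.199).

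The calls of OsMT-I-2b were lost with arrays centred on their medians, at 0.71 in P deficiency (adjusted p = 0.0531) and 0.62 in the combined deficiency (adjusted p = 0.09). They were also lost when any 1 array was left out. Its probe set Os.12410.3.S1_x_at gave larger differences, at 1.38 in P deficiency (limma adjusted p = 0.0106), 1.81 in the combined deficiency (adjusted p = 0.0141) and 1.37 in Fe deficiency (adjusted p = 0.0636).

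The other 4 genes passed in no comparison with the control, nor did any of the 5 pass between the combined deficiency and either single deficiency. Between the combined deficiency and Fe deficiency 2.26% of all probe sets passed. OsMT-I-1a (LOC4351213), a type 1 gene also named OsMT1a, averaged 21050 in the combined deficiency, 28093 in Fe deficiency, 21041 in P deficiency and 22789 in the control. OsMT-I-4c (LOC4352582), the near neighbour of OsIDS1, gave 23791 and 23311 in the combined deficiency, 35256 and 33908 in Fe deficiency, 19355 and 19590 in P deficiency, and 27604 and 26813 in the control. Its level in P deficiency was on the other side of the control from that of OsIDS1, at -0.48 (limma adjusted p = 0.0799). Fe deficiency minus control was 0.35 for OsMT-I-4c on normalized values and -0.052 on the intensities as deposited, where the brightest signals of the Fe-deficiency arrays are lower.

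OsMT-I-2a (LOC4325218) averaged 11870 in the combined deficiency, 12341 in Fe deficiency, 10670 in P deficiency and 13100 in the control on its brightest probe set. OsMT-I-1b (LOC4332487) averaged 9291 in the combined deficiency, 10389 in Fe deficiency, 6661 in P deficiency and 8046 in the control, and 1 P-deficiency array read the same as the lower control array. OsMT-I-4b had only the probe set Os.37783.2.S1_x_at, which also matches OsMT-I-4c and 1 more locus. That probe set averaged 19774 in the combined deficiency, 25166 in Fe deficiency, 17431 in P deficiency and 15839 in the control. OsMT-II-1a had no probe set listed.

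In Fe deficiency 0 of the 5 other metallothioneins passed (limma, 2 at an unadjusted p below 0.05), beside 0.124% of all probe sets (4767 of 57194 unadjusted). Their median difference was 0.35 on normalized values, against -0.0087 over all probe sets. On the intensities as deposited, OsMT-I-1a gave 0.0073, OsMT-I-1b 0.31, OsMT-I-2a -0.18, OsMT-I-2b 0.44 and OsMT-I-4c -0.052. For the combined deficiency minus P deficiency 0 of 5 passed (limma, 0 at an unadjusted p below 0.05), beside 0.0315% of all probe sets (5806 of 57194 unadjusted). The median was 0.22 there on normalized values, against -0.0097 over all probe sets. On the intensities as deposited the 5 genes ran from -0.18 to 0.42. With median centring they ran from -0.25 to 0.35, and only OsMT-I-1b was above 0.

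**Figure D3:**
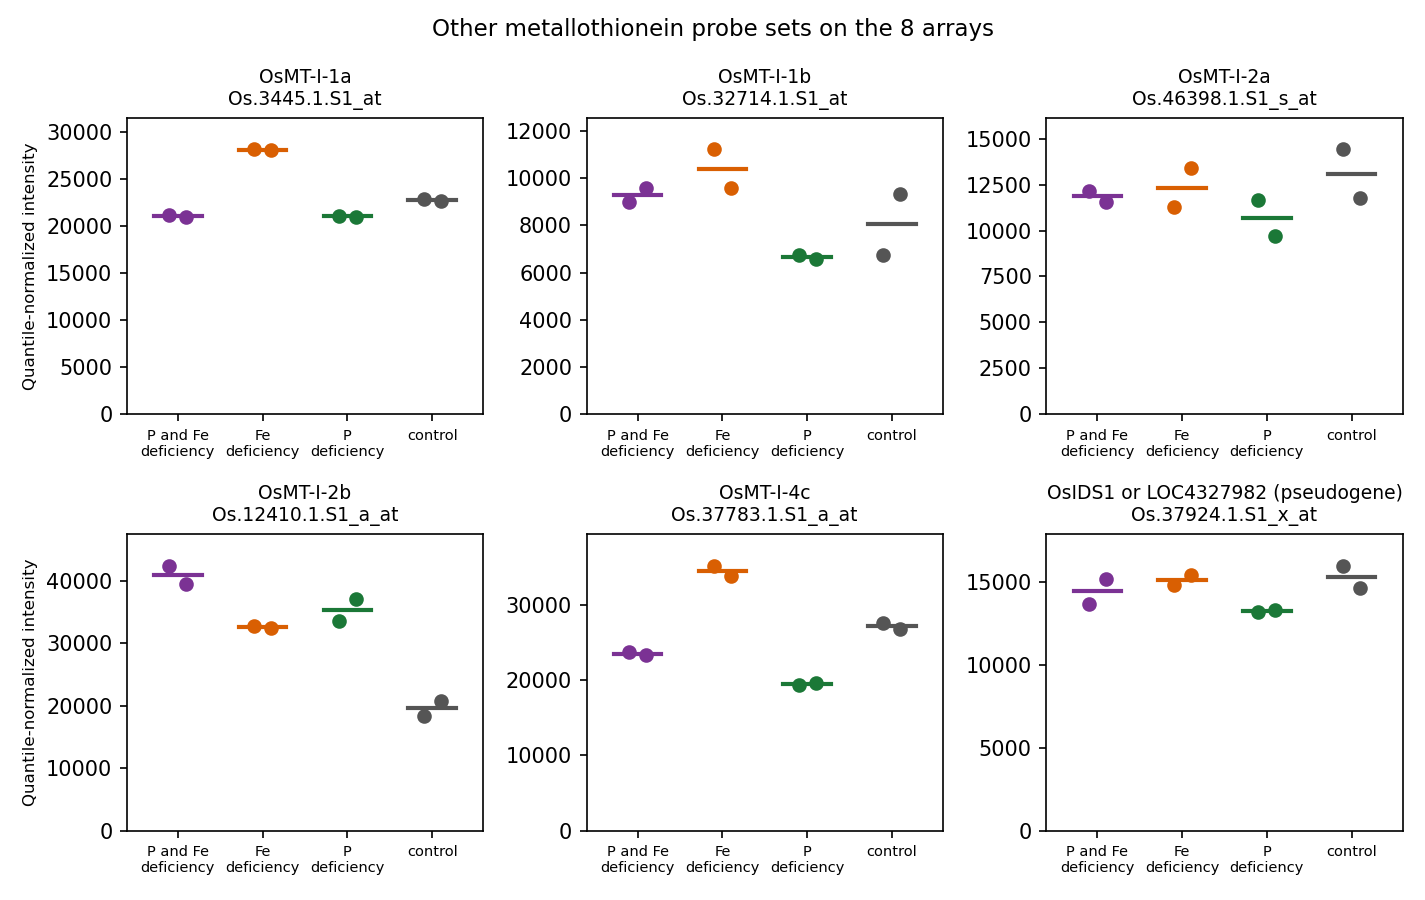
Quantile-normalized intensity (vertical axes, each from 0) of the brightest probe set of the 5 other metallothionein genes and of the probe set shared by OsIDS1 and the pseudogene LOC4327982, by treatment group. Points are the 2 arrays of a group and lines their mean. OsMT-I-2b is above the control in each deficiency, whereas OsMT-I-4c in P deficiency (19355 and 19590) is below the control (27604 and 26813).

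Rice takes up Fe both as complexes with mugineic acids and through transporters of free metal ions such as OsIRT1 and OsNRAMP1. Of the 10 measured genes of Fe acquisition, drawn from both routes, 3 rose in Fe deficiency, beside 0.105% of all probe sets. They were the nicotianamine synthases OsNAS2 (2.01) and OsNAS1 (1.63) and OsYSL15 (1.98), the transporter of iron bound to deoxymugineic acid (log2 differences, limma adjusted p of 0.0244 to 0.0366). These calls were lost with median centring and when any 1 array was left out. In P deficiency 3 of the 10 passed upward, among them OsNAS1 (0.85) and OsNAS2 (0.88), and 1 downward. That stood beside 8.28% of all probe sets in either direction. In the combined deficiency 3 of 10 passed upward against the control, beside 2.07% of all probe sets. Other settings were not run for these counts. For the combined deficiency minus P deficiency 0 of 10 passed in limma, with a median of 0.35. An unadjusted p below 0.05 was reached by 5 of them, beside 5806 of all 57194 probe sets. The largest of these differences were 1.14 for OsNAAT1 (adjusted p = 0.107), which makes the precursor of mugineic acids, and 1.11 for OsNRAMP1 (adjusted p = 0.178), a metal transporter. OsYSL15 differed by 0.20. In P deficiency it stood 0.21 above the control, against 1.46 for OsIDS1.

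The genes whose pattern was most like each metallothionein were taken by Pearson correlation over the 8 arrays, among 2163 named genes with a mean of at least 100 in 1 or more groups. For OsIDS1 they were CYP99A2 (LOC4335096, 0.979), a cytochrome P450 of diterpenoid phytoalexin synthesis, OsCASPL2A1 (LOC4335371, 0.969), OsMT-I-2b (0.957), OsDTS2 (LOC4335094, 0.945), a diterpene synthase, and the beta-expansin OsEXPB3 (LOC4349349, 0.941). CYP99A2 stood at 714 in the combined deficiency, 791 in Fe deficiency, 616 in P deficiency and 314 in the control. OsMT-I-2b entered here through Os.12410.1.S1_x_at, not its brightest probe set. All 5 of these genes, picked by this correlation, were lowest in the control, as OsIDS1 was. So were the 5 genes most like OsMT-I-2c, given next.

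For OsMT-I-2c the most similar genes were LTP2-B (LOC4351317, 0.989), a lipid transfer protein, AMY1.1 (LOC4330832, 0.973), an alpha-amylase, OsNAS2 (LOC4332607, 0.973), OsNAS1 (LOC4332608, 0.957) and the glutaredoxin GRXC10 (LOC4351046, 0.953). LTP2-B gave 1311 and 1237 in the combined deficiency, 1992 and 2088 in Fe deficiency, 151 and 153 in P deficiency, and 15.6 and 18.8 in the control. OsNAS2 gave 10505 and 10984 in the combined deficiency, 13086 and 13211 in Fe deficiency, 5758 and 6280 in P deficiency, and 3514 and 3030 in the control. Both had the same order of groups as the brightest OsMT-I-2c probe set. These correlations rest on 4 groups of 2 arrays and carry no test.

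**Figure D4:**
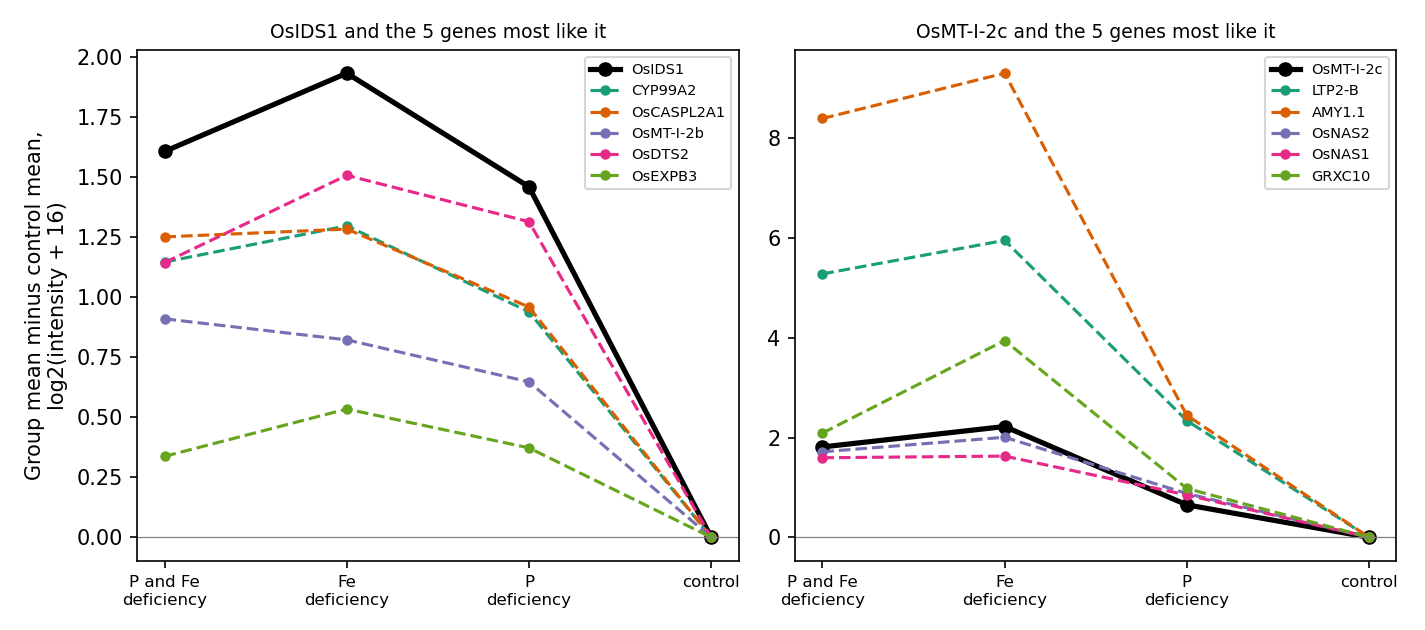
Group means of log2(intensity + 16) minus the control mean (vertical axis) for OsIDS1 (left) and the brightest OsMT-I-2c probe set (right), each with the 5 genes most like it over the 8 arrays. Lines join the groups of a gene for reading only. In P deficiency OsIDS1 is at 1.46, and its 5 genes run from 0.37 (OsEXPB3) to 1.32 (OsDTS2). OsMT-I-2c is at 0.65 there, and its 5 genes run from 0.85 (OsNAS1) to 2.45 (AMY1.1).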

How the data were processed

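The deposited values are linear array intensities, 1 per probe set and array, made in Affymetrix Expression Console 1.1 per the submitters' processing notes. No source used here states how probe signals were summarized. The mean after trimming 2% at each end was 500.07 on every array. Of 57381 probe sets, 123 AFFX and 64 RPTR controls were left out. Of the 57194 kept, 22436 matched exactly 1 gene in the probe table, 95 several and 34663 none. Names came from a japonica gene table, matched by gene ID. Indica transcripts that differ from the probes in sequence can read lower.

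Intensities were quantile-normalized and converted to log2(intensity + 16), which understates changes of dim genes. A model with 4 group means was fitted to each probe set in limma 3.58.1 under R 4.3.3 (4 residual and 1.74 prior degrees of freedom), with Benjamini-Hochberg adjustment over all probe sets and a threshold of 0.05. "Rose" is used for what passed. A gene is represented by its probe set with the highest mean. The fit was tested on simulated data. Named genes are both metallothioneins, their measured family, up to 3 called Fe acquisition genes and the 5 genes most like each member; OsNAAT1 and OsNRAMP1 were added after their values were seen. The genes and lists were chosen with earlier results of these data known. The replicate numbers did not pair the arrays, and promoters and proteins were not analysed here. Alternatives were other scalings, added constants of 1 and 64, a filter on dim probe sets, fewer arrays and a replicate block.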

Additional observations from a re-analysis of the deposited data

How the results depend on the processing

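The difference of OsIDS1 between the combined deficiency and P deficiency did not pass under any of the 15 alternatives, with values of -0.062 to 0.23 and a limma adjusted p of 0.546 to 0.995. It was -0.062 when each array was centred on its median, and 0.059 to 0.23 when 1 array was left out. For the brightest OsMT-I-2c probe set the 15 alternatives gave 0.96 to 1.18, 1.13 to 1.18 when 1 array was left out, and 1 passed, at 1.16 with probe sets averaging under 100 in every group left out (adjusted p = 0.023). Adjusted p-values over its alternatives ran to 0.342. Of its other probe sets Os.14153.3.S1_x_at passed (1.99) and kept its call under 3 of 15 alternatives, with 1.91 to 2.05. The replicate block left the differences at 0.15 for OsIDS1 (adjusted p = 0.821) and 1.16 for OsMT-I-2c (adjusted p = 0.281).

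Counts of calls moved much more than these differences. For the combined deficiency minus P deficiency, 10 probe sets passed with an added 1, 118 with an added 64, 423 with dim probe sets left out, 0 on the 4 arrays alone (5311 at an unadjusted p below 0.05 in limma), 0 with the replicate block (5399 unadjusted) and 0 to 8 without 1 array. For Fe deficiency minus control the counts were 32, 213, 350, 0 (4922 unadjusted), 14 and 0 to 10 in that order, and 46 with median centring. For P deficiency minus control they were 3082, 7473, 9461, 0 (11190 unadjusted), 2385 and 3 to 2990. For the combined deficiency minus control they were 843, 4506, 6804, 0 (9539 unadjusted), 107 and 5 to 651. The share called upward was 51% in P deficiency and 53.8% in the combined deficiency, against 32.8% and 29.7% with median centring, which moved the median difference of all probe sets to -0.15 and -0.19.

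Of the 5 other metallothioneins, 1 passed in Fe deficiency and 2 in P deficiency with dim probe sets left out, and 2 in P deficiency with an added 64. In P deficiency and in the combined deficiency 0 passed with median centring, on the 4 arrays alone, with the replicate block and without any 1 array, and in the combined deficiency also with an added 1. Of the 10 Fe acquisition genes, 1 passed for the combined deficiency minus P deficiency with an added 64 and 4 with dim probe sets left out. For Fe deficiency minus control 6 passed in each of these settings, and 0 with median centring, with an added 1, on the 4 arrays alone, with the replicate block and without any 1 array.

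Signs of small differences turned with the scaling. For the combined deficiency minus P deficiency, OsMT-I-1a gave -0.18 on deposited values and -0.25 with median centring, and OsMT-I-2b gave -0.022 and -0.091. With median centring OsMT-I-2a gave -0.0073 and OsMT-I-4c -0.018, while OsMT-I-1b gave -0.091 for the combined deficiency minus control. For Fe deficiency minus control OsMT-I-4c gave -0.052 on deposited values and -0.041 with median centring. For P deficiency minus control Os.12791.4.S1_x_at gave -0.11 with median centring. The cause was not tested. Leaving out probe sets lowers the number tested and also alters the spread that limma shares across probe sets. Leaving out arrays lowers the degrees of freedom. Over 23858 bright probe sets, deviations of same-numbered arrays correlated at -0.079 to 0.098 over the 6 pairs of groups, so the numbers were not taken as pairs. The scalings of differences given with no test were chosen after seeing the data.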
